A study of Mus musculus with 6 samples.

Results

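E2F transcription factors and the retinoblastoma family proteins that bind them were followed as RNA in retinal progenitor cells (RPCs) with and without a deletable Pax6 gene. The family was taken as 10 mouse genes, the E2F genes E2f1, E2f2, E2f3, E2f4, E2f5, E2f6 and E2f8 and the retinoblastoma family genes Rb1, Rbl1 and Rbl2. All probe sets annotated to exactly 1 of these symbols were used, 23 of the 45037 probe sets tested, for 10 of 18193 genes. The mutant cells were Pax6 loxP/loxP;α-Cre, and the control cells were Pax6 +/+;α-Cre, so that both groups carried the same α-Cre transgene. In that transgene, Pax6 regulatory DNA (the P0 promoter with the α enhancer of the peripheral retina) drives Cre in the distal optic cup, and an internal ribosome entry site adds GFP. The loxP sites flank the initiator ATG and the exons of the paired domain. GFP-positive cells of ICR embryos at embryonic day 12 were sorted into 3 pools of equal cell number per genotype, and 1 Affymetrix mouse expression array was hybridised per pool. Pools rather than single embryos were measured, and the sort takes cells in which the enhancer is active, whether or not both Pax6 copies are already lost. The pools are described as biological replicates, and p-values measure the spread between them.

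E2F proteins bind DNA next to a DP partner at the promoters of genes for DNA replication and the cell cycle. E2f1, E2f2 and E2f3 are the activators, E2f4 and E2f5 act mainly as repressors together with pocket proteins, E2f6 represses without them as part of a polycomb complex, and E2f8 is an atypical repressor that needs no DP partner. The pocket proteins encoded by Rb1, Rbl1 (p107) and Rbl2 (p130) hold E2F in check until cyclin-dependent kinases phosphorylate them. In the embryonic retina, Rb1 is needed for newborn neurons to leave the cell cycle.

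The E2F motif was looked for in the family's own promoters, because several E2F genes and Rbl1 are known targets of E2F. The letters searched were TTTCCCGC, TTTCCCGG, TTTCGCGC, TTTCGCGG, TTTGCCGC, TTTGCCGG, TTTGGCGC and TTTGGCGG, the 8 spellings of the E2F consensus, on both strands. RefSeq promoter windows on GRCm38.p6, from 250 bases before to 50 bases after an annotated start, were matched for 7 of the 10 genes, in 9 windows, and E2f4, E2f5 and Rb1 had no entry. The motif was present in 3 of the 9 windows (33.3%), against 1481 of 32851 windows of the same length (4.51%). The 3 genes that hold a match, E2f2, E2f3 and Rbl1, each had a probe set lower in mutant RPCs. Each also had a probe set that did not pass the threshold given below. E2f1 was lower without a match in the window read. Whether the motif goes with the change in RNA was not tested. The matches follow, 5′ to 3′ on the gene's strand with the motif in capitals.
E2f2, chr4:136172293-136172322, plus strand, just after the start: ccgaaTTTGGCGGcatatagTTTGGCGCta
E2f3, chr13:29986064-29986133, minus strand, just before the start: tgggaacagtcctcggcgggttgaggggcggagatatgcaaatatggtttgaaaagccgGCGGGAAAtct
Rbl1, chr2:157204535-157204604, minus strand, just before the start: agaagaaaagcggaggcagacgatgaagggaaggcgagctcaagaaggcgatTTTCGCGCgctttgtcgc
The E2f2 stretch holds 2 copies close together, TTTGGCGG and TTTGGCGC. In E2f3 the capitals are the reverse complement of TTTCCCGC, and a further match, TTTCGCGG, lay 4 to 11 bases after the start. None of the 8 spellings was present in the windows of E2f1, E2f6, E2f8 and Rbl2. The starts used for the E2f1 and E2f8 windows lay 466 and 477 bases inside the gene's 5′ end, so that the most upstream start of these genes was not read. A match is a description of these letters, not evidence of binding.

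The arrays were alike in scale. Their median intensities lay between 12.9 and 13.1, and log2 intensities correlated at 0.995 to 0.997 between arrays of 1 genotype and at 0.991 to 0.993 between genotypes. Over all probe sets the median log2 fold change, mutant minus control, was -0.02. One of 5 Pax6 probe sets was lower with an adjusted p under 0.10, at 4.79, 4.88 and 4.45 on the log2 scale in mutant pools against 6.34, 6.44 and 6.14 in control pools. The brightest one differed by -0.11 (adjusted p = 0.306). Where these probe sets lie relative to the deleted exons was not stated in the sources.

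In the Pax6-deficient RPCs, 5 of the 23 family probe sets were lower and 0 were higher at a Benjamini-Hochberg adjusted p under 0.10 from limma, the threshold used for every count of passing probe sets or genes below. The 5 stood for E2f1 (2 probe sets), E2f2, E2f3 and Rbl1. As a share this was 21.7% of the family, against 4.55% of all probe sets lower and 5.04% higher (9.59% in either direction). With a fold change of at least 1.5 as well, 3 probe sets were called lower, 1 each of E2f1, E2f2 and Rbl1, which was 13% of the family against 0.984% of all probe sets lower and 1.67% higher (2.65% in either direction). Every mutant pool lay below every control pool in 8 family probe sets (34.8%, against 15.1% of all) and above in 1, a probe set of Rb1 (13.2% of all). The median log2 fold change was -0.10 over the family. At an unadjusted p under 0.05, 7 family probe sets were lower and 1 was higher. The share of all probe sets at that unadjusted threshold was not counted. This count and the unadjusted counts below therefore have no background to be read against. Of the 23 probe sets, 6 had a mean below the array median in both genotypes, and none of these passed.

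**Figure D1:**
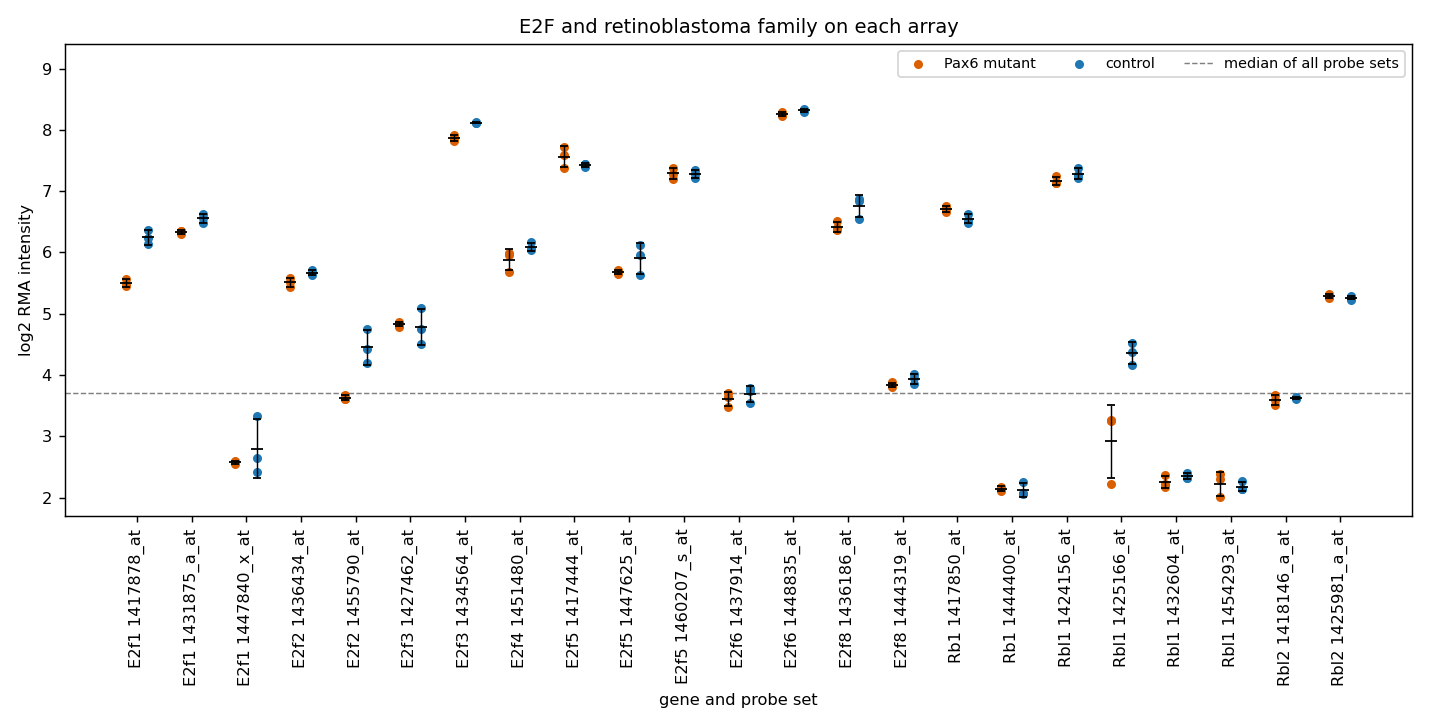
Log2 RMA intensity of the family probe sets in each pool, mutant pools left of control pools, with the mean ± SD (n = 3) of each genotype in black and the median of all probe sets as a dashed line. Mutant points lie below all control points in 8 probe sets, widest apart at 1 each of E2f1, E2f2 and Rbl1, and the points overlap for E2f6 and Rbl2.

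Among the activators, E2f1 had the smallest adjusted p of the family. Its probe set 1417878_at read 5.46, 5.47 and 5.57 on the log2 scale in mutant pools, against 6.14, 6.37 and 6.23 in control pools. The mutant pools were all lower and the groups did not overlap. The log2 fold change came to -0.75 (standard error 0.08, 95% confidence interval -0.93 to -0.56, adjusted p = 0.00641), a 1.68-fold lower level, or 59.7% of control. This probe set passed in all 14 alternative analyses in which it was tested, with log2 fold changes between -0.80 and -0.68.

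A second E2f1 probe set, 1431875_a_at, which detects several transcripts of the gene, read 6.30, 6.35 and 6.35 in mutant pools against 6.49, 6.63 and 6.56 in control pools. Its mutant pools were also all lower, by a smaller step of -0.23 in log2 units (standard error 0.06, adjusted p = 0.0948), or 85.5% of control. This call was lost when any of the 6 arrays was left out (adjusted p between 0.10 and 0.25) and when the arrays were centred on their medians (adjusted p = 0.113). The third, 1447840_x_at, lay below the array median in both genotypes and its groups overlapped (-0.22, adjusted p = 0.615).

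E2f2, an activator best known from blood cell development, fell at 1 of its 2 probe sets. The probe set 1455790_at read 3.61, 3.67 and 3.60 in mutant pools against 4.19, 4.42 and 4.76 in control pools. The mutant values were nearly the same in all pools and lay just under the array median of about 3.70. At so dim a probe set the size of the change is uncertain. The log2 fold change was -0.83 (standard error 0.14, 95% confidence interval -1.15 to -0.51, adjusted p = 0.0213), or 56.3% of control. The call was lost without the moderation of the variance (adjusted p = 0.134). The other E2f2 probe set, 1436434_at, read 5.44, 5.58 and 5.51 in mutant pools against 5.63, 5.67 and 5.71 in control pools. All mutant pools were lower there too, but the difference did not pass (-0.16, adjusted p = 0.22).

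E2f3, whose gene gives a long and a short form of an activator, was lower by a small and even step at 1434564_at. It read 7.91, 7.82 and 7.85 in mutant pools against 8.11, 8.12 and 8.12 in control pools. The groups did not overlap, and the SD of the control pools was 0.01 on the log2 scale (n = 3). The log2 fold change was -0.25 (standard error 0.06, adjusted p = 0.0532), or 83.8% of control. This call was lost when any of the 6 arrays was left out (adjusted p between 0.108 and 0.157) and by the median of the gene's probe sets (-0.10, adjusted p = 0.496). The other E2f3 probe set, 1427462_at, read 4.79, 4.86 and 4.84 in mutant pools, inside the range of 4.50, 5.10 and 4.75 in control pools (log2 fold change 0.05, adjusted p = 0.890). Of the 7 activator probe sets, 4 passed and all 4 were lower, and their median was -0.23.

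Of the 8 repressor probe sets of E2f4, E2f5, E2f6 and E2f8, 0 passed in either direction, against 9.59% of all probe sets. With 8 probe sets a count of 0 is close to that share, and activators and repressors were not compared by a test. Among the 8, 1 had an unadjusted p under 0.05, and their median was -0.09. E2f8, which in the mouse is itself induced in S phase and represses E2f1, read 6.51, 6.39 and 6.36 at 1436186_at in mutant pools against 6.54, 6.87 and 6.84 in control pools. The groups did not overlap, with control replicate 1 close to the highest mutant pool. The log2 fold change was -0.33 (standard error 0.10, adjusted p = 0.121), and without control replicate 1 it was -0.43 and passed (adjusted p = 0.0446). It also passed with the dimmest probe sets left out (adjusted p = 0.0806) and with an intensity trend in the variance (adjusted p = 0.0641). The second E2f8 probe set, 1444319_at, near the array median, differed by -0.10 on the log2 scale (adjusted p = 0.461).

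E2f4, the main E2F of the repressor complex in resting cells, had 1 probe set, at 5.68, 5.995 and 5.96 in mutant pools against 6.17, 6.05 and 6.04 in control pools. Its groups did not overlap, but 2 of the mutant pools lay within 0.1 of the lower control pools, and the difference did not pass (-0.21, 95% confidence interval -0.43 to 0.02, adjusted p = 0.283). E2f5, the other pocket-protein-bound repressor, had 3 probe sets with overlapping groups and log2 fold changes of 0.14, -0.22 and 0.01. The one at -0.22, 1447625_at, passed only without control replicate 3 (-0.36, adjusted p = 0.0724).

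E2f6 differed little. Its brighter probe set, 1448835_at, read 8.23, 8.26 and 8.29 in mutant pools against 8.29, 8.33 and 8.32 in control pools. The groups overlapped slightly, and the 95% confidence interval of the log2 fold change ran from -0.19 to 0.08 around -0.05 (adjusted p = 0.632). The other E2f6 probe set had means just below the array median and differed by -0.08 on the log2 scale (adjusted p = 0.657).

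**Figure D2:**
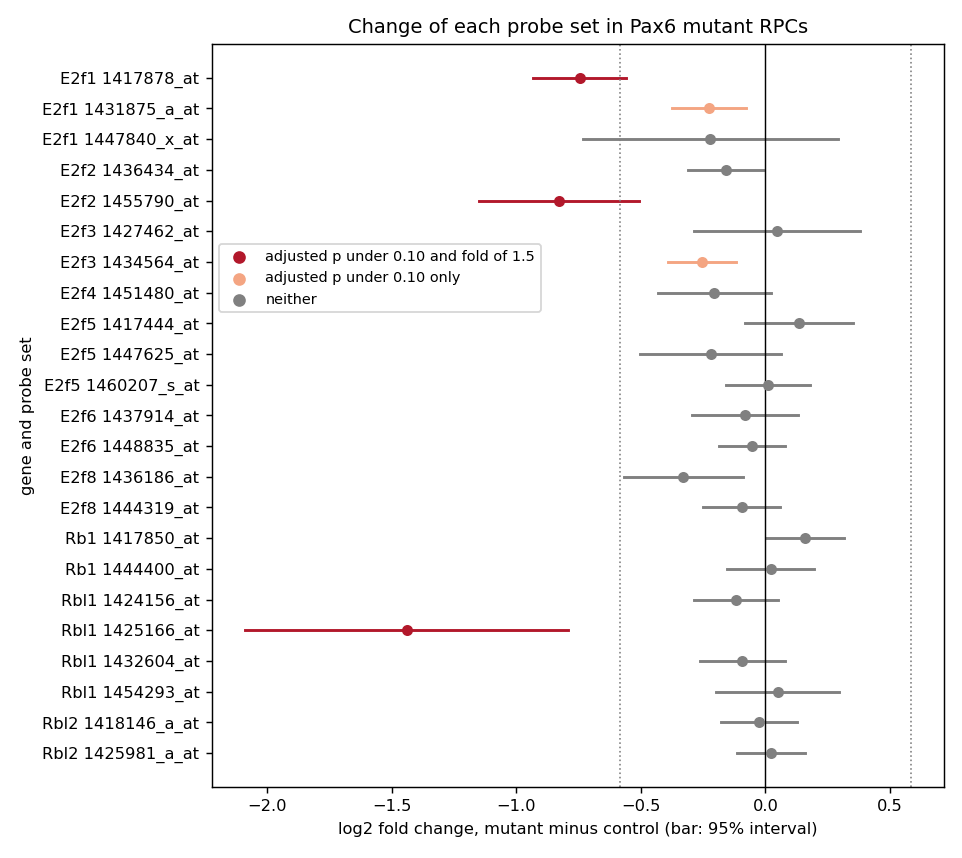
Log2 fold change of each family probe set, mutant minus control, with its 95% confidence interval from limma; dark red marks a fold of 1.5 with an adjusted p under 0.10, light red an adjusted p under 0.10 alone, and dotted lines a fold of 1.5. The 5 probe sets that passed are those of E2f1 (-0.75 and -0.23), E2f2 (-0.83), E2f3 (-0.25) and Rbl1 (-1.44), and the intervals of E2f6 and Rbl2 lie across 0.

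Among the pocket protein genes, 1 probe set of Rbl1 passed and was lower, and no other passed. Rb1, the retinal tumour suppressor gene, was the only member with every mutant pool above every control pool. At 1417850_at it read 6.71, 6.66 and 6.76 in mutant pools against 6.54, 6.48 and 6.63 in control pools. The log2 fold change was 0.16 (95% confidence interval 0.00 to 0.31), with an unadjusted p of 0.0472 and an adjusted p of 0.233, so that it did not pass, nor in any alternative (adjusted p between 0.137 and 0.447). The other Rb1 probe set lay below the array median in both genotypes (0.02).

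Rbl1, which encodes p107, had the largest fold change of the family, at the probe set 1425166_at. It read 3.25, 2.23 and 3.27 in mutant pools against 4.16, 4.38 and 4.52 in control pools. The groups were far apart, with mutant replicate 2 well under the other mutant pools and all mutant values below the array median. At 2.23, mutant replicate 2 read as low as the dim Rbl1 probe sets 1432604_at and 1454293_at, whose means lay between 2.18 and 2.35. The size of the fall is therefore uncertain. The log2 fold change was -1.44 (standard error 0.27, 95% confidence interval -2.09 to -0.79, adjusted p = 0.0331), or 36.9% of control, and it was -1.10 without mutant replicate 2. The call was lost without the moderation of the variance (adjusted p = 0.176).

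The brightest Rbl1 probe set, 1424156_at, did not show a change of that size. It read 7.25, 7.13 and 7.12 in mutant pools against 7.26, 7.22 and 7.38 in control pools, with overlapping groups and a difference of -0.12 on the log2 scale (95% confidence interval -0.29 to 0.05, adjusted p = 0.409). The remaining pair of Rbl1 probe sets lay below the array median (-0.09 and 0.05). Rbl2, which encodes p130, the pocket protein of resting cells, read 5.26, 5.27 and 5.33 at 1425981_a_at in mutant pools against 5.23, 5.27 and 5.29 in control pools (0.02, 95% confidence interval -0.11 to 0.16, adjusted p = 0.860). Its other probe set was also near 0 (-0.03). Of the 8 pocket protein probe sets, 1 passed (12.5%), against 9.59% of all probe sets in either direction, and their median was 0.00 after rounding.

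Probe sets of 1 gene gave fold changes of different size in E2f1, E2f2, E2f3 and Rbl1. In E2f1 the difference in log2 intensity between 1417878_at and 1431875_a_at was -0.83 ± 0.05 in mutant pools and -0.31 ± 0.05 in control pools (SD, n = 3). In Rbl1 that between 1425166_at and 1424156_at was -4.25 ± 0.57 in mutant pools and -2.93 ± 0.14 in control pools (SD, n = 3). The pairs were chosen because 1 of them had passed, so these values are a description, with no test. Which exons or 3′ ends each probe set reads is not given in the files, so a change in 1 transcript form and a change in the gene as a whole cannot be told apart here.

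With the median log2 intensity of a gene's probe sets taken on each array, E2f1 (-0.75, adjusted p = 0.0036), E2f2 (-0.49, adjusted p = 0.0185) and Rbl1 (-0.72, adjusted p = 0.0278) were lower and passed. These values are not independent of the single probe sets: that of E2f1 is the probe set 1417878_at itself, and that of Rbl1 averages the dim 1425166_at with a neighbour in brightness, while the other Rbl1 probe sets had log2 fold changes of -0.12, -0.09 and 0.05. The other genes did not pass, with E2f8 at -0.21, E2f4 at -0.21, E2f3 at -0.10 and Rb1 at 0.09. By the brightest probe set of each gene, 2 of 10 passed, E2f1 and E2f3, both lower, against 5.22% of all genes lower and 7.15% higher. None of the 10 was called at a fold change of 1.5, and their median was -0.14.

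**Figure D3:**
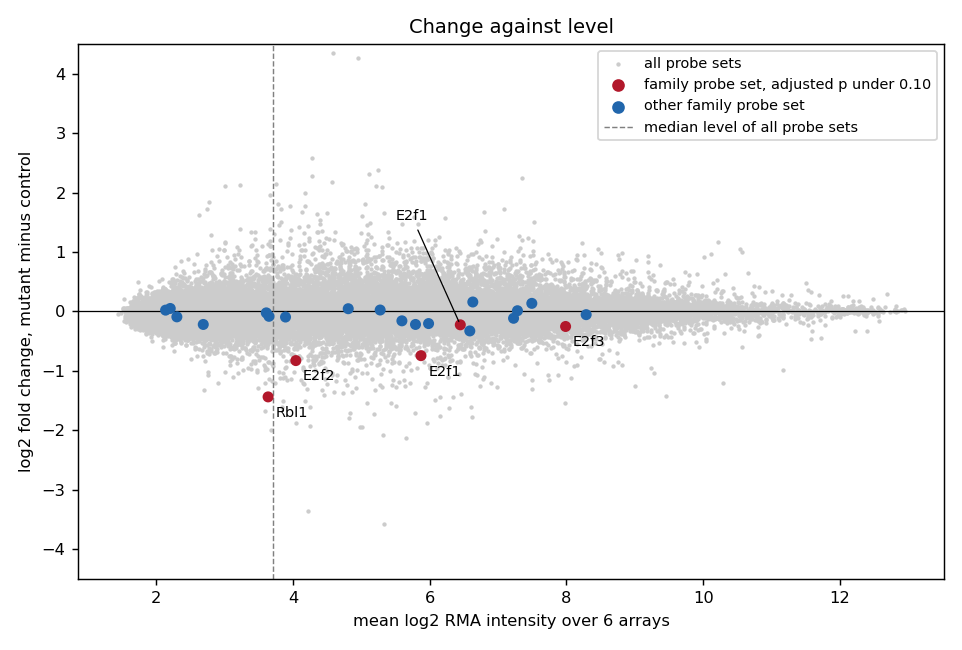
Log2 fold change, mutant minus control, against the mean log2 intensity over the 6 arrays for all probe sets (grey) and the family (red where the adjusted p was under 0.10, blue otherwise), with the median level of all probe sets as a dashed line. The E2f2 and Rbl1 probe sets with the largest falls lie near that line, and those of E2f1 and E2f3 lie well to its right.

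The partners and targets of the family were described by the brightest probe set of each gene. Both DP partners, which E2F proteins need to bind DNA, passed and were lower. Tfdp2 read 7.94, 7.99 and 8.02 in mutant pools against 8.34, 8.25 and 8.28 in control pools (log2 fold change -0.30, adjusted p = 0.0362). Tfdp1 read 8.48, 8.43 and 8.40 in mutant pools against 8.63, 8.72 and 8.73 in control pools (-0.25, adjusted p = 0.0641). The groups were apart in both. Tfdp2 was not called without mutant replicate 1 or 2 (adjusted p = 0.122 and 0.107), and Tfdp1 lost its call without any single array other than control replicate 1 (adjusted p between 0.137 and 0.186).

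The 30 measured E2F target genes were genes of replication, nucleotide synthesis, the cell cycle, the DNA damage response and chromatin. Of these, 25 passed and were lower in mutant RPCs and 0 were higher, against 5.22% of all genes lower and 7.15% higher. All 30 had a negative log2 fold change, between -0.58 and -0.14 with a median of -0.33, against a median of -0.01 over all genes. In all 30, every mutant pool lay below every control pool, as in 16.4% of all genes. The list was chosen with earlier results of these data known, so these shares are a description and not independent support. None of the 30 was called at a fold change of 1.5, as 0.918% of all genes were on the lower side. The summed intensity of the list was 13470 to 13783 in mutant pools and 16562 to 17143 in control pools. Leaving out 1 array at a time, 10 to 15 of the 30 passed, fewest without mutant replicate 2 or 3 (10 each), and all 30 stayed negative in each case.

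The targets with the largest changes among those that passed were Ccne2, Rrm2, Gins1 and Tyms. Rrm2, a subunit of ribonucleotide reductase, read 9.31, 9.22 and 9.35 in mutant pools against 9.71, 9.88 and 9.85 in control pools (-0.52, adjusted p = 0.0127). Gins1, a component of the replicative helicase, read 7.77, 7.64 and 7.78 in mutant pools against 8.25, 8.10 and 8.26 in control pools (-0.47, adjusted p = 0.0183). Both kept their call whichever array was left out. Ccne2, which encodes cyclin E2, read 5.31, 5.17 and 4.73 in mutant pools against 5.62, 5.47 and 5.86 in control pools (-0.58, adjusted p = 0.0998), and the Tyms probe set, for thymidylate synthase and near the array median, had -0.46 (adjusted p = 0.0676). The Ccne2 call was lost whichever array was left out, and the Tyms call whenever any array but mutant replicate 3 was. The 5 target genes that did not pass by their brightest probe set were Slbp, Mybl2, Ccne1, Pola1 and Rrm1. Their log2 fold changes there lay between -0.22 and -0.14. A dimmer probe set of Ccne1 (-0.33) and a dimmer one of Rrm1 (-0.29) were lower and passed. Dimmer probe sets of the target genes were not counted.

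**Figure D4:**
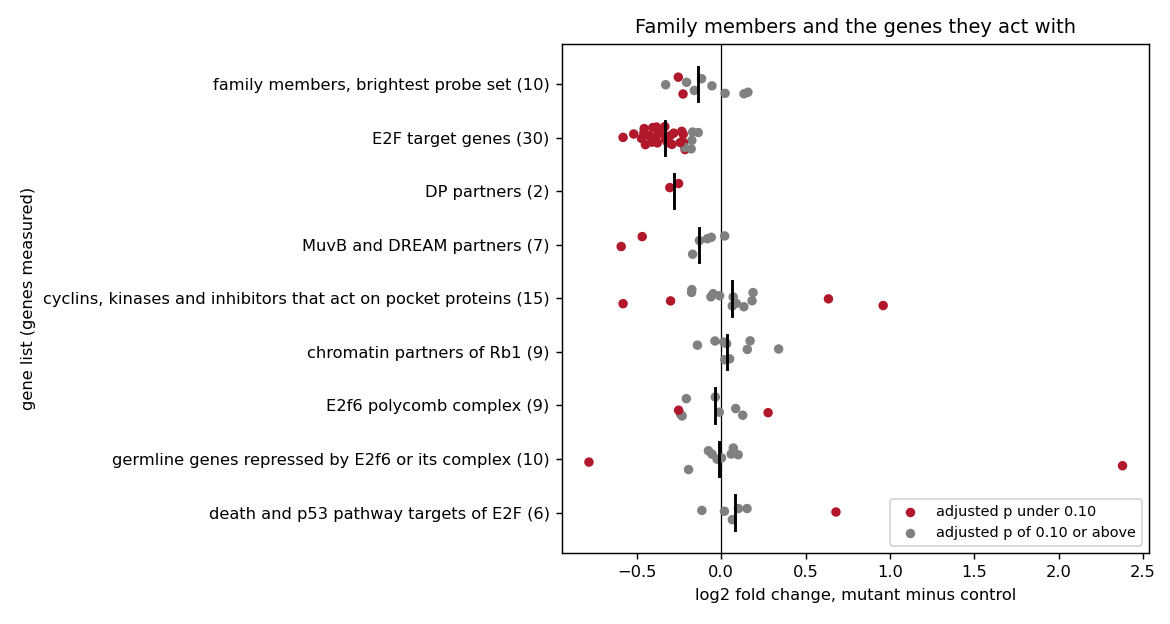
Log2 fold change, mutant minus control, of each gene of the lists around the family, by brightest probe set, red where the adjusted p was under 0.10 and grey otherwise, with the list median as a bar and the family's own genes in the top row. All 30 E2F target genes and both DP partners lie left of 0, while the kinase regulators, the Rb1 partners and the E2f6 lists lie on both sides.

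The E2F motif was present in the promoter windows of 14 of 26 of these target genes that had one (53.8%), against 5.14% of 27025 genes. Over the genes outside the family that were measured and had a window, 117 of 1051 with a match were lower and passed (11.1%) and 67 were higher (6.37%). Of 13394 without a match, 649 were lower (4.85%) and 933 were higher (6.97%). The median log2 fold change was -0.04 with a match and -0.01 without. The listed target genes, chosen with earlier results known, were kept in these counts, so the shares are a description and not independent support.

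In the MuvB and DREAM group, which joins E2F repressors and pocket proteins or the activators of late cell cycle genes, 2 of 7 were lower, 0 were higher, and the median was -0.13. For this list and those that follow, the shares of all genes are again 5.22% lower and 7.15% higher, so that 1 gene of a list of about 10 is close to the background. Foxm1, the activator of G2 and M phase genes, read 6.05, 6.06 and 6.02 in mutant pools against 6.46, 6.62 and 6.44 in control pools (-0.47, adjusted p = 0.0153). Lin52, a core subunit, was lower at its brightest probe set (-0.59, adjusted p = 0.0702), and this call was lost without mutant replicate 1 or 3, without any 1 control pool, and by the median of its probe sets (-0.26).

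Of 15 cyclins, kinases and inhibitors that act on the pocket proteins, 2 were higher and 2 were lower. The inhibitor gene Cdkn1c (p57) had a log2 intensity of 10.6 ± 0.02 in mutant pools and 9.64 ± 0.09 in control pools (SD, n = 3, log2 fold change 0.96, adjusted p = 0.00216), and Ccnd2, cyclin D2, was higher too (0.64, adjusted p = 0.0066). Ccnd1, cyclin D1, was lower at all 3 of its probe sets, with -0.30 at the brightest (adjusted p = 0.0486) and fold changes over 1.5 at the other two (-0.70, adjusted p = 0.00389, and -0.59, adjusted p = 0.00447). The call at the brightest was lost without any array other than control replicate 1. Ccne2 was the other lower gene. Cdk4, Cdk6 and Cdk2, the kinases themselves, had log2 fold changes of -0.05, 0.09 and 0.07 and did not pass. Of 9 measured chromatin partners of Rb1, 0 passed, the smallest p being that of the demethylase gene Kdm5a (0.17, adjusted p = 0.217), and 1 was higher at an unadjusted p under 0.05.

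Of 9 measured genes of the polycomb complex that holds E2f6, Rnf2, the RING ubiquitin ligase, was higher (0.28, adjusted p = 0.0438) and Tfdp1 was lower. The Rnf2 call was lost without mutant replicate 1, 2 or 3 or control replicate 1, and by the median of its probe sets (0.10). Of 10 measured germline genes that E2f6 or its complex is known to silence in mouse cells, 8 lay below the array median in both genotypes, and the median log2 fold change was -0.01. Dazl was higher at both of its probe sets (2.38 and 2.18), and Tdrkh, a gene of the piRNA pathway, was lower (-0.78, adjusted p = 0.00362). Stag3, Smc1b, Slc25a31 and Tuba3b, germline genes known to rise in cells without E2f6, had log2 fold changes of -0.02, -0.08, 0.07 and 0.06 at probe sets below the array median and did not pass. A brighter probe set shared by Tuba3b and Tuba3a, which names no single gene, was lower and passed (-0.57). Of 6 measured death and p53 pathway targets of E2F, Pmaip1 (Noxa) was higher (0.68, adjusted p = 0.0125) from a level below the array median in control pools, and the median was 0.08.

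The genes closest to a member in profile were sought for the members with the smallest p by their brightest probe set, E2f3 and E2f1. The measure was the root mean square difference in log2 intensity over the 6 arrays after each profile was centred on its mean, over 11263 genes above the array median. Nearest to E2f3 were Mtfr2 (0.0186), Galnt7 (0.0221) and Cdk1 (0.0249), the last a mitotic kinase and itself an E2F target. Nearest to E2f1 at 1431875_a_at were Ecpas (0.0197), the checkpoint kinase gene Chek2 (0.0200) and Ppp1r8 (0.0220). All 6 had log2 fold changes between -0.24 and -0.20. These profiles share the same 6 arrays and the step between genotypes, and no test was made of the likeness.

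Markers of the cells in the sort moved in the same arrays. Of 9 measured retinal progenitor markers 4 passed and were lower, with a summed intensity of 5586 to 5746 in mutant pools and 8083 to 8485 in control pools. Most of that step lay in Sfrp2 (-0.98 on the log2 scale) and Fgf15 (-1.43), while Lhx2, Sox2, Six6, Hes1 and Pax6 did not pass (-0.12, -0.19, -0.11, 0.06 and -0.11). Of 7 neuron markers 6 were lower, with a sum of 222 to 275 in mutant pools and 402 to 626 in control pools. Markers of other cells of the eye were higher. For pigment epithelium 8 of 9 passed, with sums of 8798 to 8893 in mutant pools and 5625 to 6836 in control pools. For lens and surface ectoderm 6 of 10 passed, with 2945 to 3279 in mutant pools and 1406 to 2333 in control pools. The sums of lists for the tissues around the optic cup were also higher in mutant pools. For mesenchyme and neural crest 4 of 8 passed, with 611 to 851 in mutant pools and 403 to 441 in control pools. For endothelium 5 of 7 passed, with 826 to 872 in mutant pools and 428 to 632 in control pools. For blood 1 of 5 passed, with 5459 to 6072 in mutant pools and 2796 to 4847 in control pools. That sum lay mostly in Hbb-bh1, the gene that passed (1.00), and Hba-x, which did not (0.48). The groups overlapped for Alas2 (0.38), Ptprc (0.05) and Hba-a1 (-0.19). The Hba-a1 probe set lay below the array median in both genotypes (means 2.23 in mutant and 2.42 in control pools), so its value says little about that gene. The sums did not overlap between genotypes in any of these lists. Of 5 photoreceptor precursor markers, 2 were higher (326 to 348 in mutant pools, 198 to 250 in control pools). RMA gives no marker a value of 0. The part of these cell types in the lower E2f1, E2f2, E2f3, Rbl1 and target gene levels was not tested. In sorted pools measured in bulk, fewer cells of a type and less RNA per cell cannot be told apart.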

How the data were processed

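RNA of 6 pools of sorted cells was measured on 1 Affymetrix mouse expression array each. The authors summarised probes to probe sets by RMA, and the deposited values are linear RMA intensities, background corrected and normalised between arrays; the processing notes also name Affymetrix Expression Console. RMA shrinks dim probe sets towards a floor, so that fold changes of dim probe sets are uncertain. Of 45101 probe sets, 64 control probe sets were left out. Log2 of the intensities was fitted with limma 3.58.1 in R 4.3.3 (lmFit and eBayes, no covariate), with Benjamini-Hochberg adjustment over all 45037. Calls used an adjusted p under 0.10, or also a fold change of at least 1.5 and p under 0.05, the thresholds of the methods. The test was checked on simulated data. Symbols came from the platform annotation (34945 probe sets with 1 symbol, 932 with several, 9160 with none; several-symbol probe sets named no gene). The brightest probe set over the 6 arrays stood for a gene. Every family probe set is reported; from each list up to 4 passing genes were named by size of change, or the gene with the smallest p where none passed, and Ccnd1, Ccnd2, Cdkn1c, Dazl and Pax6 were added. Other genes named, such as Slbp, Cdk4, Stag3, Smc1b, Slc25a31, Tuba3b, Sfrp2 and Fgf15, were chosen after their values were seen. The members and lists were chosen with earlier results of these data known. Alternatives changed the scaling, the filter on dim probe sets, the variance model, the probe sets of a gene and the arrays. Arrays have no sequencing depth, and their number, 3 per group, limits the precision.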

Additional observations from a re-analysis of the deposited data

How the results depend on the processing

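Of the family's probe sets, 5 were lower at an adjusted p under 0.10, 4 to 6 with other scaling, filters, an intensity trend or array weights, and 0 were higher in any alternative. Without the moderation of the variance, 2 passed and 1 was called at a fold change of 1.5, 12 E2F target genes passed, and 178 probe sets were called lower and 282 higher, against 443 and 752. With the replicate number as a block, 3 family probe sets and 13 target genes passed. The sources do not say whether the numbers pair the pools. Deviations of same-numbered arrays correlated at -0.01, -0.00 and -0.01. No shared replicate effect was visible, but these values cannot tell whether pools were collected together. Leaving out 1 array at a time, 3 to 4 family probe sets passed, 3 to 3 were called at a fold change of 1.5, the same 3 each time, and 10 to 15 target genes passed. The 3 kept without each array were 1 each of E2f1, E2f2 and Rbl1. Why calls were lost with fewer arrays was not tested. Leaving out an array did not always raise the adjusted p. It fell for E2f8 at 1436186_at without control replicate 1 and for E2f5 at 1447625_at without control replicate 3. No result changed direction while called. The number of arrays limits what small changes of E2f4, E2f5 and Rb1 can show.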
